A study of Mus musculus with 12 samples.

Results

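Ferritin storage, ferritin breakdown and iron or haem export were followed through 8 genes in sorted mouse bone marrow pro-erythroblasts (Pro-E), the earliest stage of terminal erythropoiesis. The genes were chosen by function: Fth1 and Ftl1 (ferritin subunits), Ncoa4 (ferritin turnover), Pcbp1 and Pcbp2 (iron chaperones), Slc40a1 (ferroportin, iron export), and Flvcr1 and Abcg2 (haem and porphyrin export). They are 8 of the 24453 genes in the table. All 8 were among the 9650 genes that reached 1 FPKM (fragments per kilobase of exon, scaled to sequencing depth) in at least 3 libraries. Flvcr1 is listed under its older symbol Mfsd7b and was matched through RefSeq synonyms.

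RNA sequencing was performed on 12 libraries, 3 in each of 4 groups: wild-type (WT) mice and mice homozygous for the β-thalassemic Hbb th1 allele (th1/th1), each given PBS or human apo-transferrin (apoTf). ApoTf is transferrin without iron. The labels give 10 mg (400 mg/kg/day) of apoTf or PBS by intraperitoneal injection for 20 days, with collection 3 days after the last injection. Strain C57BL6 and an age of 5 months are given for every library, whereas the study's methods give a younger age and a mixed background. Each library pooled Pro-E from several mice, so the error below is the spread between 3 pools. Repeated bleeding appears in the labels of all 12 libraries, and it is not clear if it applied to the mice sequenced here. The genotype tags in the labels run opposite to the sample titles in all 12 libraries, and the titles were followed. Hbb-b1, the adult β-globin gene removed by the th1 deletion, was at 97.5 to 204 FPKM in the libraries titled th1/th1 and at 722 to 3241 FPKM in those titled WT.

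The sorted cells carried pro-erythroblast RNA. The 8 pro-erythroblast markers summed to between 756 and 1266 FPKM, while 12 of 14 macrophage markers, a cell type that also makes much ferritin and ferroportin, stayed under 1 FPKM in every library. Cd68 reached 1.82 FPKM, Cd163 reached 1.10 FPKM and Adgre1, which defines macrophages, did not exceed 0.084 FPKM. The 9 granulocyte markers summed to 2.61 to 50.2 FPKM in WT and 0.865 to 11.8 FPKM in β-thalassemic libraries, the 6 megakaryocyte markers to 5.86 to 15.6 FPKM, and the 6 lymphocyte markers in the table to at most 0.126 FPKM. The 10 later erythroblast markers summed to 2114 to 5730 FPKM in WT and 1503 to 2865 FPKM in β-thalassemic libraries. These sums include Hbb-b1, the deleted gene, at 722 to 3241 FPKM in WT and 97.5 to 204 FPKM in β-thalassemic libraries. The median log2 fold change of the 10 markers in β-thalassemic against WT Pro-E was -0.02 given PBS (4 above 0, 6 below) and -0.03 under apoTf (5 and 5). One PBS-treated WT library, replicate 1, stood apart: its median rank correlation with the others was 0.867, against 0.982 to 0.990 for the other 11. Estimates against PBS-treated WT are therefore also given without it where they moved.

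Iron that enters an erythroblast goes to mitochondria for haem synthesis or into ferritin, a shell of heavy (FTH1) and light (FTL) chains. The PCBP proteins hand iron to ferritin, and NCOA4 carries ferritin to the lysosome (ferritinophagy), where the iron is released for haem. Ferroportin is the known cellular iron exporter, and FLVCR1 and ABCG2 have been described as exporters of haem and porphyrins. Ferritin and ferroportin are also controlled after transcription: iron regulatory proteins bind a hairpin in the 5′ end of their mRNA, the iron-responsive element (IRE), and hold back translation when iron is scarce. RNA levels therefore show only part of the regulation of these genes.

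The 3 genes among the 8 that carry this hairpin are shown because their protein output can change with no change in the FPKM. A search of 5′ untranslated regions in GENCODE M21 (GRCm38) on the sense strand looked for the loop CAGTGN, flanked by 5 bases on each side that pair with each other, G-U pairs allowed, and preceded by a C. It found a match in Fth1, Ftl1 and Slc40a1, and in 31 of 20045 protein-coding genes (0.155%). Capitals mark the loop. The sites lie at chr19:9982732-9982760 (+) in Fth1, chr7:45459779-45459807 (-) in Ftl1 and chr1:45925465-45925493 (-) in Slc40a1, and the sequences read, 5′ to 3′:
Fth1: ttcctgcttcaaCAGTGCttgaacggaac
Ftl1: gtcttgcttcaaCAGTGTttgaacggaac
Slc40a1: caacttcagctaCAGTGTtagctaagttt
Erythroid cells are also known to make a ferroportin mRNA without the element, and the gene-level FPKM does not tell these transcripts apart.

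Fth1, the heavy chain with the ferroxidase activity that loads iron into the shell, was the most abundant of the 8 genes and varied least. It ranked between 23 and 38 among all genes of the table in every library. In WT Pro-E given PBS its FPKM was 459.6, 441 and 519, and in apoTf-treated WT 492, 486 and 421. In β-thalassemic Pro-E it was 458, 419 and 591 with PBS and 407, 464 and 420.2 with apoTf. The 4 groups overlapped throughout, and the whole range spanned 1.45-fold. The limma estimates were 0.04 (95% interval -0.30 to 0.38) on the log2 scale for β-thalassemic against WT Pro-E given PBS, -0.17 (-0.51 to 0.17) for apoTf in β-thalassemic mice and -0.02 (-0.36 to 0.32) for apoTf in WT mice. All fold changes here are on the log2(FPKM + 0.5) scale, which understates changes of low genes.

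**Figure D1:**
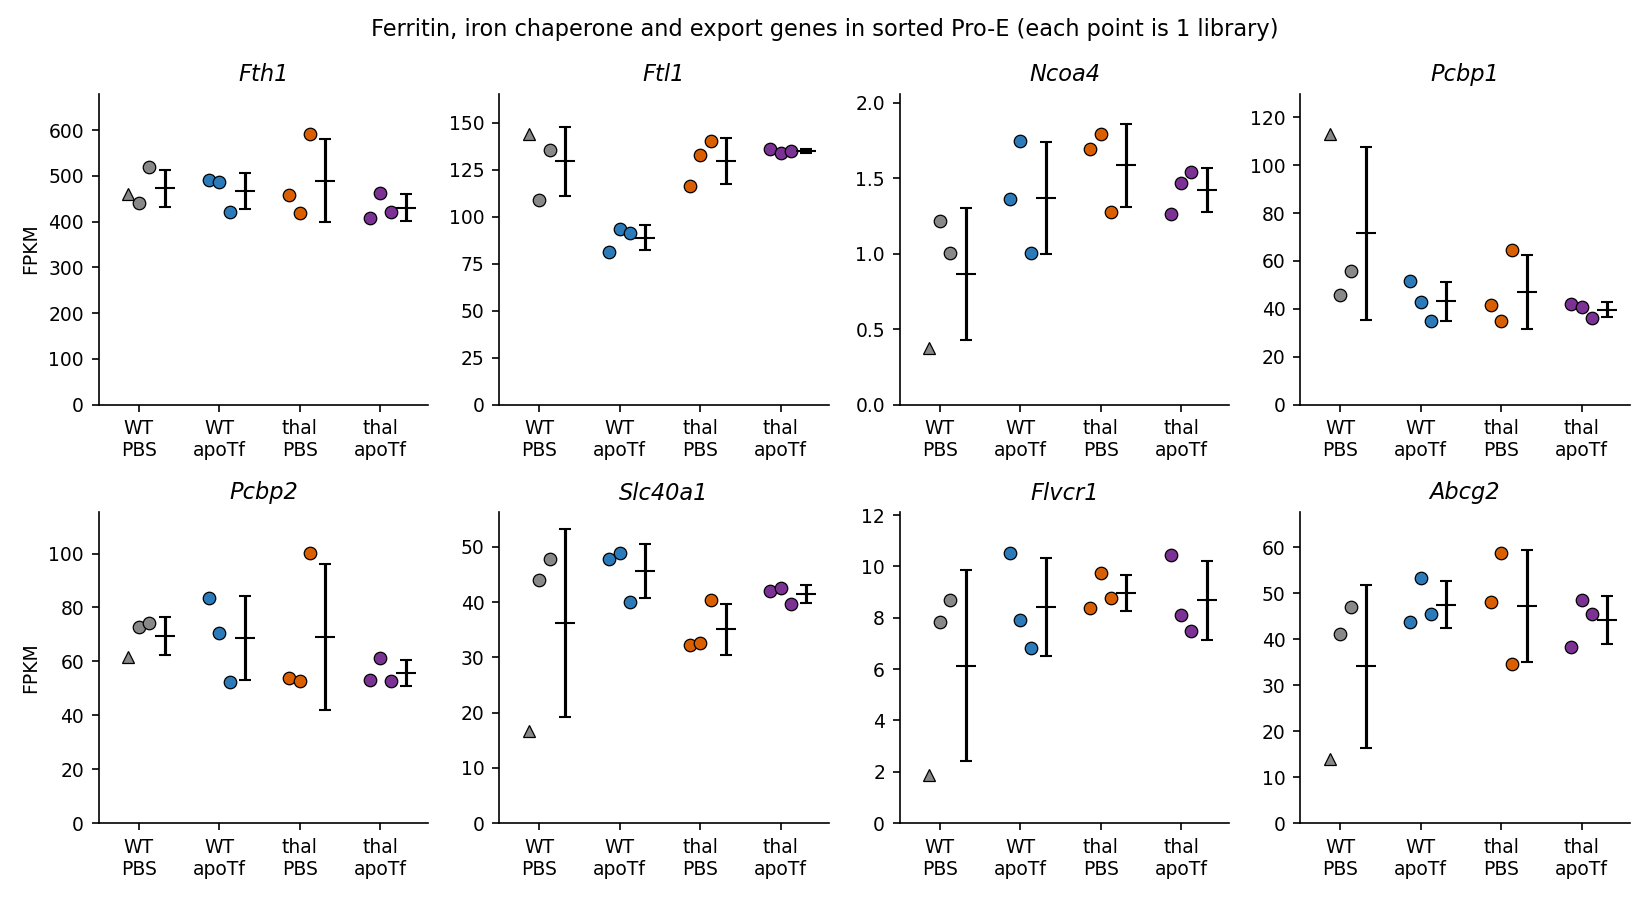
FPKM of the 8 genes in each library, by genotype and treatment (thal, β-thalassemic); points are libraries, the dash and bar the mean and SD of 3 libraries, and the triangle is replicate 1 of PBS-treated WT. The 3 apoTf-treated WT libraries sit at 81.4 to 93.6 FPKM of Ftl1, and those of PBS-treated WT at 109 to 144 FPKM. The triangle is lowest for Ncoa4, Slc40a1, Flvcr1 and Abcg2 and highest for Pcbp1.

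Ftl1, the light chain that supports mineralisation of the iron core, was the member with the clearest separation between groups. Its FPKM was 144, 109 and 136 in PBS-treated WT and 81.4, 93.6 and 91.4 in apoTf-treated WT libraries. In β-thalassemic Pro-E it was 116, 133 and 140.0 with PBS and 136, 134 and 135 with apoTf. The apoTf-treated WT libraries thus lay below the PBS-treated WT and the apoTf-treated β-thalassemic libraries, and the other 3 groups overlapped one another. In the comparison of apoTf with PBS in WT mice, the groups were free of overlap in either direction in 10.9% of all genes tested, and in the comparison of the genotypes under apoTf in 11.6%.

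Mean Ftl1 was 129 ± 18.4 FPKM (SD, n = 3) in PBS-treated WT, 88.8 ± 6.53 in apoTf-treated WT, 129.6 ± 12.2 in PBS-treated and 135 ± 1.05 in apoTf-treated β-thalassemic Pro-E. In WT mice the apoTf estimate was -0.53 (SE 0.14, 95% interval -0.84 to -0.22), with a limma adjusted p of 0.41 over all 9650 genes, so it did not pass the threshold of 0.05. In β-thalassemic mice it was 0.06 (-0.25 to 0.37, adjusted p = 1 by limma). The difference between these 2 apoTf effects was 0.60 (0.16 to 1.04, adjusted p = 0.764 by limma). Among apoTf-treated mice, β-thalassemic Pro-E had 0.61 (0.29 to 0.92) more Ftl1 than WT on the log2 scale (adjusted p = 0.9999 by limma). The comparisons outside the β-thalassemic mice share the apoTf-treated WT libraries and are not independent of one another.

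Because the WT groups did not overlap in Ftl1, leaving out a single library could not change the direction of the apoTf estimate. The estimate lay between -0.65 and -0.45 in 21 alternatives that left out a library or changed the processing. Many of these could change its p but not the estimate itself. They were leaving out a β-thalassemic library, other filters, moderation with no trend, the replicate number as a block and a fit of only the groups compared. The adjusted p fell under 0.05 in 1 of them, without replicate 2 of PBS-treated WT, where it was 0.0404 by limma. That library had the lowest Ftl1 of its group, and without it 446 genes passed the threshold against 0 with all libraries. Across the 21 alternatives the adjusted p ranged from 0.0404 to 0.9998. Without replicate 1 of PBS-treated WT the estimate was -0.45 and the adjusted p 0.9998 by limma.

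The heavy to light chain balance followed from these levels. The ratio of Fth1 to Ftl1 FPKM was 3.19, 4.06 and 3.83 in PBS-treated WT, 6.04, 5.19 and 4.61 in apoTf-treated WT, 3.94, 3.17 and 4.22 in PBS-treated β-thalassemic and 2.99, 3.46 and 3.11 in apoTf-treated β-thalassemic libraries. The apoTf-treated WT libraries had the highest ratios, with no overlap with any other group. How often other pairs of genes separate in this way was not tested. On the log2 scale the ratio was 0.51 (SE 0.15) higher with apoTf than with PBS in WT, with an exact two-sided permutation p of 0.1, the smallest that 3 against 3 libraries allow. The difference with apoTf in β-thalassemic Pro-E was -0.24 (SE 0.14, exact permutation p = 0.2). The difference in WT was 0.41 without replicate 1 of PBS-treated WT (exact permutation p = 0.2, the smallest that the remaining libraries allow). Between PBS-treated β-thalassemic and WT Pro-E it differed by 0.03 (SE 0.16, exact permutation p = 0.8). The Benjamini-Hochberg values over the 6 ratio tests were 0.4, 0.4 and 0.8. Under apoTf, β-thalassemic against WT Pro-E differed by -0.72 (SE 0.13, exact permutation p = 0.1). That comparison was not among the 6 adjusted tests and shares the apoTf-treated WT libraries with the difference in WT.

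**Figure D2:**
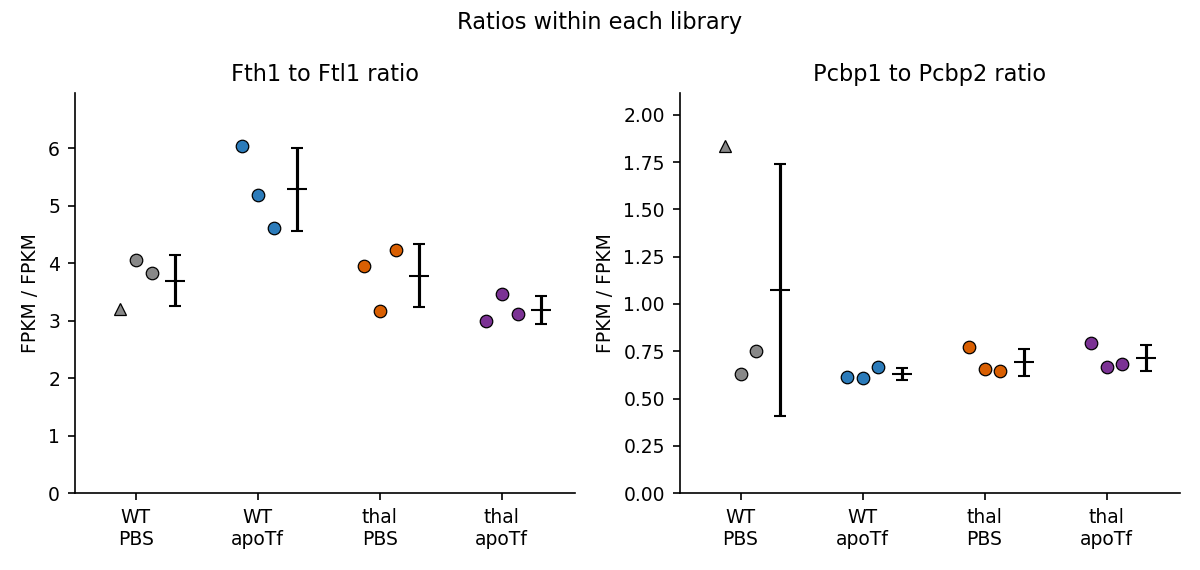
Ratio of Fth1 to Ftl1 FPKM (left) and of Pcbp1 to Pcbp2 FPKM (right) in each library; points are libraries, the dash and bar the mean and SD of 3, and the triangle is replicate 1 of PBS-treated WT. Fth1 to Ftl1 ratios of the apoTf-treated WT libraries reach 4.61 to 6.04, and Pcbp1 to Pcbp2 ratios lie between 0.609 and 0.792 except for the triangle at 1.84.

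How far the FPKM stand for each gene alone depends on sequence, since only reads with 1 alignment were kept and both strands were counted. Of the 50-base words of the Ftl1 transcript, 74.8% also occur in other genes, 15 in all, among them processed pseudogenes of the light chain; the gene Ftl1-ps1 on chromosome 13 holds 73.4% of them. Ncoa4 shares 43.1% of its words with the processed pseudogene Gm6768 on chromosome 12, Fth1 shares 6.6% and Pcbp2 0.8%. The other 4 genes share none. Reads from such words would be lost or split, so the levels of Ftl1 and Ncoa4, and the height of the Fth1 to Ftl1 ratio, are uncertain. Whether the shared words play a part in the differences between groups was not tested. Overlapping genes hold 57.1% of the words of Pcbp2, 52.6% through Map3k12 on the opposite strand, 39.9% of those of Ftl1 and 18.4% of those of Flvcr1, and reads from the 2 strands cannot be told apart.

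**Figure D3:**
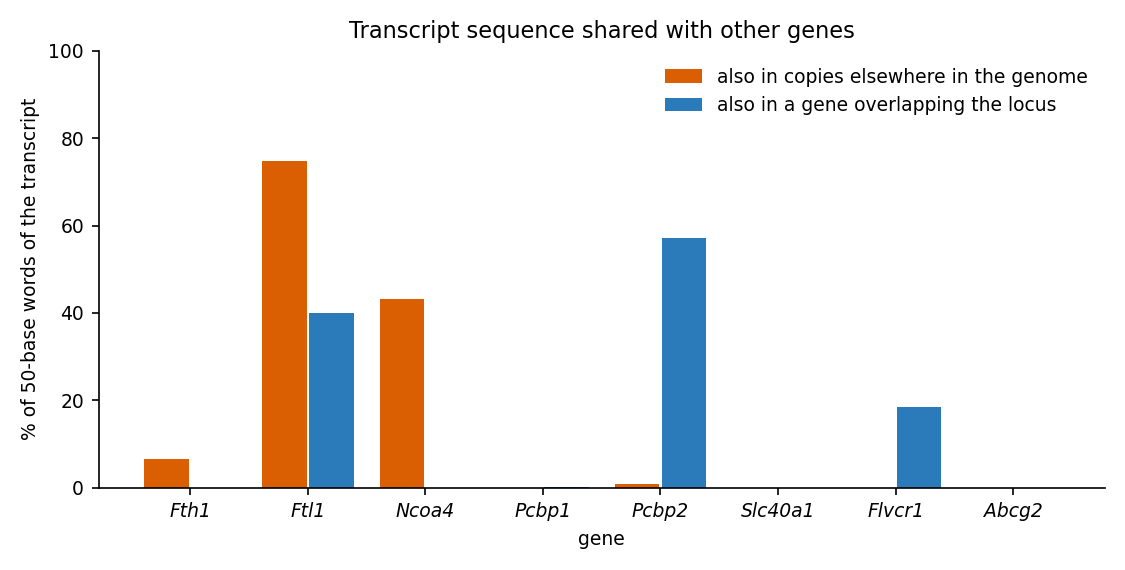
Percent of the 50-base words of each gene's transcript that also occur in a gene elsewhere in the genome (orange) or in genes that overlap the locus (blue), in GENCODE M21. Ftl1 (74.8%) and Ncoa4 (43.1%) share most with copies, and Pcbp2 (57.1%) most with overlapping genes.

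Ncoa4, the ferritinophagy receptor, was the least abundant member. Its FPKM was 0.376, 1.22 and 1.01 in PBS-treated WT, 1.36, 1.75 and 1.01 in apoTf-treated WT, 1.69, 1.79 and 1.27 in PBS-treated β-thalassemic and 1.26, 1.47 and 1.54 in apoTf-treated β-thalassemic libraries. The PBS-treated β-thalassemic libraries lay above the PBS-treated WT libraries, by 1.27 against 1.22 at the closest, and overlapped with apoTf-treated WT. The genotypes given PBS did not overlap, in either direction, in 6.92% of all genes. The estimate for β-thalassemic against WT Pro-E given PBS was 0.66 (0.12 to 1.19, adjusted p = 0.528 by limma). Without replicate 1 of PBS-treated WT, which had the lowest value of all, it fell to 0.37 (-0.04 to 0.77, adjusted p = 0.702 by limma). ApoTf estimates were 0.49 (-0.04 to 1.03) in WT, or 0.20 (-0.21 to 0.61) without that library, and -0.11 (-0.65 to 0.42) in β-thalassemic Pro-E.

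Pcbp1 and Pcbp2 encode the chaperones that deliver iron to ferritin. Pcbp1 was at 113, 45.9 and 55.8 FPKM in PBS-treated WT, 51.4, 42.9 and 35.0 in apoTf-treated WT, 41.7, 34.8 and 64.5 in PBS-treated β-thalassemic and 42.1, 40.8 and 36.0 in apoTf-treated β-thalassemic libraries. Pcbp2 was at 61.5, 72.9 and 74.2 FPKM in PBS-treated WT, 83.5, 70.4 and 52.5 in apoTf-treated WT, 53.9, 52.8 and 100.3 in PBS-treated β-thalassemic and 53.1, 61.1 and 52.7 in apoTf-treated β-thalassemic libraries. The groups overlapped for both genes in every comparison.

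The spread of Pcbp1 in PBS-treated WT came from replicate 1, whose value was 2.53-fold the mean of the other 11 libraries. With it, Pcbp1 was estimated at -0.54 (-1.22 to 0.14) in β-thalassemic against WT Pro-E given PBS, and without it at -0.16 (-0.64 to 0.33). For apoTf in WT, Pcbp1 was estimated at -0.63 (-1.31 to 0.05) with it and -0.25 (-0.73 to 0.24) without it. The ratio of Pcbp1 to Pcbp2 was 1.84 in that library and between 0.609 and 0.792 in the other 11. Over 3 against 3 libraries, the log2 ratio differed by -0.47 (exact permutation p = 0.7) between the genotypes given PBS, by -0.60 (exact permutation p = 0.2) with apoTf in WT and by 0.05 (exact permutation p = 0.5) with apoTf in β-thalassemic Pro-E. Their Benjamini-Hochberg values were 0.8, 0.4 and 0.75. Without replicate 1 of PBS-treated WT, the first of these was 0.00 (exact permutation p = 0.8) and the second -0.13 (exact permutation p = 0.4). Under apoTf the genotypes did not overlap, narrowly: WT ratios were 0.609 to 0.666 and β-thalassemic ratios 0.667 to 0.792. The log2 difference was 0.18 (SE 0.09), with an exact permutation p of 0.1, the smallest that 3 against 3 libraries allow. It was not among the 6 ratio tests adjusted by Benjamini-Hochberg.

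Slc40a1, which encodes ferroportin, depended on the library that stood apart. Its FPKM was 16.65, 44.1 and 47.8 in PBS-treated WT, 47.8, 49.0 and 39.96 in apoTf-treated WT, 32.2, 32.7 and 40.5 in PBS-treated β-thalassemic and 42.1, 42.6 and 39.6 in apoTf-treated β-thalassemic libraries. With all libraries, β-thalassemic and WT Pro-E given PBS differed by 0.09 (-0.59 to 0.77, adjusted p = 0.882 by limma). Without replicate 1 of PBS-treated WT, the 3 β-thalassemic libraries lay below the 2 remaining WT libraries and the estimate turned to -0.39 (-0.66 to -0.12, adjusted p = 0.361 by limma). A separation of this kind and direction was common there: 12.3% of all genes tested were lower without overlap in the same 5 libraries.

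The apoTf estimate of Slc40a1 in β-thalassemic Pro-E was 0.24 (-0.43 to 0.92) with all libraries, and the same value with an interval of 0.00 to 0.49 without that library (adjusted p = 1 by limma in both). In WT mice, the apoTf estimate went from 0.46 (-0.21 to 1.14) to -0.02 (-0.29 to 0.26) when it was left out. Over both treatments, β-thalassemic against WT Pro-E was at -0.02 (-0.50 to 0.46) with it and -0.26 (-0.44 to -0.08, adjusted p = 0.367 by limma) without it. None of these passed the threshold.

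Flvcr1 and Abcg2 showed the same dependence. Flvcr1 was at 1.86, 7.85 and 8.68 FPKM in PBS-treated WT, 10.5, 7.90 and 6.84 in apoTf-treated WT, 8.38, 9.75 and 8.77 in PBS-treated β-thalassemic and 10.4, 8.09 and 7.51 in apoTf-treated β-thalassemic libraries. Abcg2 was at 14.0, 41.2 and 47.1 FPKM in PBS-treated WT, 43.8, 53.4 and 45.5 in apoTf-treated WT, 48.2, 58.9 and 34.5 in PBS-treated β-thalassemic and 38.4, 48.6 and 45.4 in apoTf-treated β-thalassemic libraries. Groups overlapped in every comparison, and replicate 1 of PBS-treated WT was the lowest library for both genes. For β-thalassemic against WT Pro-E given PBS, Flvcr1 went from 0.74 (-0.14 to 1.63) to 0.11 (-0.26 to 0.48) without it, and Abcg2 from 0.61 (-0.19 to 1.41) to 0.06 (-0.34 to 0.47). For apoTf in WT, Flvcr1 went from 0.64 (-0.25 to 1.52) to 0.01 (-0.37 to 0.38) and Abcg2 from 0.64 (-0.16 to 1.45) to 0.10 (-0.31 to 0.51). Fewer cells with these transcripts and less RNA per cell cannot be told apart in such bulk libraries.

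**Figure D4:**
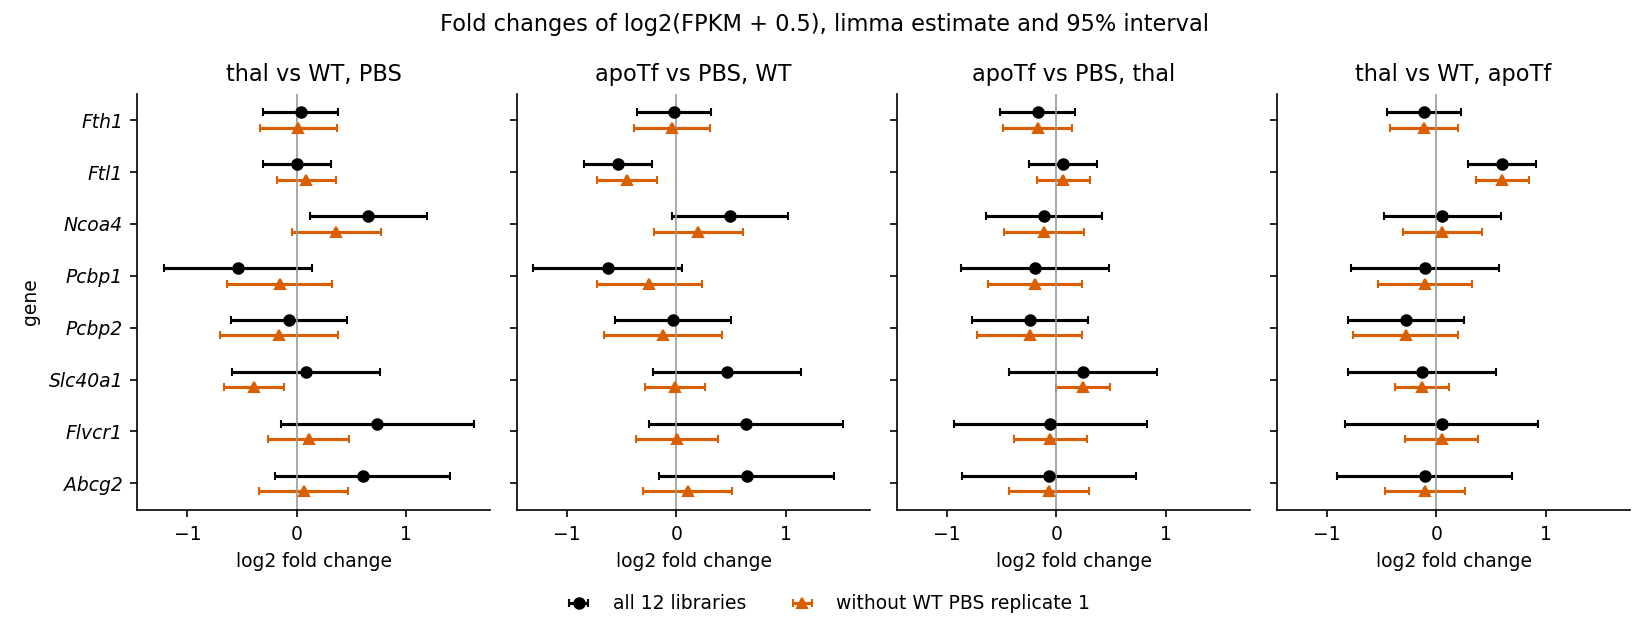
Log2 fold change of each gene with its 95% interval in 4 comparisons, from all 12 libraries (black circles) and without replicate 1 of PBS-treated WT (orange triangles). Most intervals cross 0; those of Ftl1 for apoTf in WT (-0.53) and for β-thalassemic against WT under apoTf (0.61) do not in either fit, and Slc40a1 moves from 0.09 to -0.39 in the first comparison.

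None of the 8 genes passed an adjusted p of 0.05 (limma) in any of the 6 comparisons. The share of all 9650 genes that passed was 0.259% for β-thalassemic against WT given PBS, 0.0311% for apoTf in β-thalassemic mice, 0% for apoTf in WT mice, 0.0415% for the genotypes under apoTf, 0% for the difference between the apoTf effects and 0.155% for the genotypes over both treatments. At an unadjusted p under 0.05 the members counted 1, 0, 1, 1, 1 and 1 in that order, beside 7.66%, 1.43%, 10.2%, 1.41%, 4.9% and 3.42% of all genes. The gene was Ncoa4 in the first comparison and Ftl1 in the others. Without replicate 1 of PBS-treated WT, Slc40a1 took the place of Ncoa4 in the first (7.77% of all genes). In that fit Slc40a1 also joined Ftl1 over both treatments, where 663 of 9607 genes had an unadjusted p under 0.05 by limma. Groups without overlap held 1 member for the genotypes given PBS (6.92% of all genes in either direction), 0 for apoTf in β-thalassemic mice (9.65%), 1 for apoTf in WT mice (10.9%) and 1 for the genotypes under apoTf (11.6%). The median log2 fold change of the members was 0.06 in the first comparison, against 0.08 over all genes, -0.09 against 0.03 for apoTf in β-thalassemic mice, 0.22 against 0.10 for apoTf in WT mice and -0.11 against 0.01 under apoTf. Without replicate 1 of PBS-treated WT it was 0.04 against -0.06 for the genotypes given PBS and -0.03 against -0.06 for apoTf in WT. Over both treatments Ftl1 was 0.31 (0.09 to 0.53) higher in β-thalassemic Pro-E (adjusted p = 0.814 by limma). That value averages 0.01 given PBS and 0.61 under apoTf.

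Outside the library that stood apart, the members varied about as much as other genes or more. Over the other 11 libraries the coefficient of variation was 11.8% for Fth1, 13.5% for Slc40a1, 13.8% for Flvcr1, 14.6% for Abcg2, 18.1% for Ftl1, 19.8% for Ncoa4, 20.9% for Pcbp1 and 23.9% for Pcbp2, against a median of 12.1% over all genes tested. Levels ran from Fth1 through Ftl1, Pcbp2, Abcg2, Pcbp1, Slc40a1 and Flvcr1 to Ncoa4 by median FPKM over the 12 libraries (458.9, 133, 61.3, 45.5, 42.5, 41.3, 8.24 and 1.32), and the ranges of Abcg2, Pcbp1 and Slc40a1 overlapped.

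The genes with which these members work were described through 5 lists, and none of their genes passed the threshold in any of the 6 comparisons, with or without replicate 1 of PBS-treated WT. Leaving that library out moved the median over all genes from 0.08 to -0.06 for the genotypes given PBS, and the counts above and below 0 moved with it. Of the ferritinophagy list (autophagy and lysosome genes), 21 of 21 were tested. In β-thalassemic against WT Pro-E given PBS, 13 were above 0 and 8 below, with a median of 0.03. Without that library, 3 were above 0 and 18 below, with a median of -0.13. Its genes with the smallest p there were Ulk1, the kinase that starts autophagy, at -0.48 (-0.87 to -0.08) and Atg9a, which supplies membrane to the autophagosome, at -0.41 (-0.79 to -0.02), both with an adjusted p of 0.528 by limma. Without that library they were at -0.31 (-0.63 to 0.01) and -0.26 (-0.58 to 0.07). The genes with the smallest p in that fit were Ulk2 and Rb1cc1. Ulk2 was at -0.32 (-0.57 to -0.08, adjusted p = 0.433 by limma) and Rb1cc1 at -0.31 (-0.55 to -0.07, adjusted p = 0.461 by limma). With all libraries they were at -0.01 (-0.49 to 0.47) and 0.24 (-0.50 to 0.98). Herc2, the ubiquitin ligase known to turn over NCOA4, ranged from 15.2 to 26.6 FPKM.

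Of the iron uptake and iron regulatory protein list, 11 of 14 genes were tested, 5 above 0 and 6 below in the same comparison (median -0.08), and 3 and 8 without replicate 1 of PBS-treated WT (median -0.16). Tfr2, a transferrin receptor that associates with the erythropoietin receptor, was at -0.44 (-0.86 to -0.03) and Mcoln1, a lysosomal cation channel, at -0.28 (-0.59 to 0.03), both with an adjusted p of 0.528 by limma. Without that library Tfr2 was at -0.28 (-0.63 to 0.07) and Mcoln1 at -0.26 (-0.56 to 0.03). Ireb2, which encodes an iron regulatory protein that binds the hairpins printed above, was at 5.60 FPKM in that library. The other PBS-treated WT libraries were at 19.6 and 19.9 FPKM and the PBS-treated β-thalassemic libraries at 16.6 to 18.1 FPKM. ApoTf-treated libraries were at 16.6 to 21.6 FPKM. Leaving out that library, 12.3% of all genes tested were lower without overlap in PBS-treated β-thalassemic Pro-E. Ireb2 went from 0.39 (-0.39 to 1.18) to -0.18 (-0.43 to 0.07) without it. Aco1, which encodes the other such protein, went from -0.24 (-0.75 to 0.27) to -0.47 (-0.89 to -0.04, adjusted p = 0.576 by limma).

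Of the haem transport and breakdown list, 9 of 12 were tested, 5 above 0 and 4 below (median 0.08), and 1 and 8 without replicate 1 of PBS-treated WT (median -0.04). Blvrb, a biliverdin reductase, was at -0.34 (-0.67 to 0.00) and Hebp1, a haem-binding protein, at -0.25 (-0.55 to 0.05), both with an adjusted p of 0.528 by limma. Without that library they were at -0.23 (-0.54 to 0.07) and -0.18 (-0.44 to 0.09). Hmox1, the inducible haem oxygenase, stayed at or below 0.374 FPKM in all libraries.

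Ferritin and Hmox1 are known targets of the haem-sensing repressor BACH1 and the activator NRF2. Of 11 tested genes of 13 in that list, 9 were above 0 and 2 below in β-thalassemic against WT Pro-E given PBS (median 0.13), and 5 and 6 without replicate 1 of PBS-treated WT (median -0.04). Txnrd1, a thioredoxin reductase, was at 0.77 (0.41 to 1.12, adjusted p = 0.103 by limma), with 15.3 to 22.1 FPKM in PBS-treated WT and 31.0 to 34.7 FPKM in PBS-treated β-thalassemic libraries. Without that library, at 15.3 FPKM, Txnrd1 was at 0.60 (0.35 to 0.86, adjusted p = 0.0603 by limma). Srxn1, a sulfiredoxin, was at 0.48 (0.03 to 0.93, adjusted p = 0.528 by limma), or 0.28 (-0.10 to 0.65) without it. Fth1 was at 0.04 and Ftl1 at 0.01 (-0.30 to 0.32) in this comparison.

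Paralogs and ferroxidases added little RNA. Of 8 genes listed, 1 was tested: Pcbp3, at 0.841 to 1.56 FPKM, with an estimate of -0.15 (-0.57 to 0.27, adjusted p = 0.663 by limma) in β-thalassemic against WT Pro-E given PBS, or -0.08 (-0.53 to 0.36) without replicate 1 of PBS-treated WT. Ftmt, the mitochondrial ferritin, did not exceed 0.02 FPKM, Pcbp4 did not exceed 0.16 FPKM, and Heph and Hephl1, ferroxidases that act with ferroportin, did not exceed 0.008 FPKM.

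The genes whose pattern was most like a member were ranked by Pearson correlation of log2(FPKM + 0.5) over the 11 libraries without replicate 1 of PBS-treated WT. The libraries share processing and pooled mice, and the values are descriptions. For Ftl1 these were Siva1 (0.97, and 0.94 over all 12), Abhd8 (0.93, 0.77) and Hn1 (0.92, 0.75). Siva1, an apoptosis regulator, was at 16.5 to 16.9 FPKM in apoTf-treated WT and at 18.9 to 26.1 FPKM in the other groups. For Slc40a1 they were Spon2 (0.96, 0.20), Glg1 (0.96, 0.43) and Pja2 (0.95, 0.98), for Fth1 Ctdnep1 (0.95, 0.65), Klf16 (0.95, 0.58) and Cog2 (0.94, 0.81), and for Ncoa4 Mir7064 (0.92, 0.64), Gm15471 (0.87, 0.84) and Mospd2 (0.86, 0.94). The correlations that changed most between 11 and 12 libraries were those of Spon2 and Glg1 with Slc40a1.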

How the data were processed

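Per the labels, polyA-enriched RNA from sorted Pro-E was sequenced, and STAR alignment against mm10 retained only uniquely placed reads, from which the authors made the deposited FPKM values with HOMER over exons on both strands. The submitters' processing notes also name edgeR and featureCounts; versions are not given in the sources used here. The deposited table also holds the authors' group means, fold changes and p-values, which were not used. The 8 members and all gene lists were chosen with earlier results of these data known.

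FPKM were tested as log2(FPKM + 0.5) with limma 3.58.1 in R 4.3.3 (4 group means over 12 libraries, trended moderation), on genes with at least 1 FPKM in at least 3 libraries, adjusted by Benjamini-Hochberg over 9650 genes at a threshold of 0.05. Ratios were compared by exact permutation with scipy in Python. The scripts were tested on simulated data. Nothing says that the libraries of a group came from separate preparations beyond their pools, so p-values measure the spread between these libraries. No pair of libraries held equal values in more than 0.114% of genes.

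The text names all 8 members. Of each list it names any gene past the threshold, or else the 2 genes with the smallest p for β-thalassemic against WT given PBS. It names the 3 genes most correlated with each of Fth1, Ftl1, Ncoa4 and Slc40a1, and Hbb-b1. Values of Herc2, Ulk2, Rb1cc1, Ireb2, Aco1, Hmox1, Ftmt, Pcbp4, Heph and Hephl1 were added after they were seen. Copies and overlapping genes were counted with 50-base words of GENCODE M21 transcripts.

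The table holds no counts. In 1353 short genes with 1 transcript, low values came in steps that gave totals of 40340000 to 66900000 reads per library, the highest in replicate 1 of PBS-treated WT. Between 48.8% and 63.9% of these values were whole within 0.05 of a read, too few for a count test, and multiples of these totals give the same steps. By this estimate Ncoa4 rested on 102 to 367 reads per library and Fth1 on 16120 to 28570.

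Alternatives were other pseudocounts (0.1 and 1), no filter or a filter at 5 FPKM, quantile normalization and median-ratio scaling, moderation with no trend, only the groups compared, the replicate number as a block, and leaving out each library.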

Additional observations from a re-analysis of the deposited data

How the results depend on the processing

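The count of members past the threshold was 0 in each of the 6 comparisons under every alternative run except 1. Without replicate 2 of PBS-treated WT, 1 member passed for apoTf in WT mice: Ftl1, at -0.65 with an adjusted p of 0.0404 by limma. The fit then compares apoTf-treated WT with a group of 2 libraries that includes replicate 1. No estimate whose 95% interval excluded 0 in the fit of all 12 libraries changed direction. Slc40a1 for the genotypes given PBS, at 0.09 in that fit, was at -0.39 (-0.66 to -0.12) without replicate 1 of PBS-treated WT. Slc40a1, Flvcr1, Abcg2, Ncoa4 and Pcbp1 estimates against PBS-treated WT moved by over 1.5 times without replicate 1 of that group, as given with the results. Estimates near 0 moved as well. For the genotypes given PBS, Fth1 went from 0.04 to 0.02 and Ftl1 from 0.01 to 0.09. Pcbp2 went from -0.07 (-0.60 to 0.46) to -0.16 (-0.70 to 0.38) there. For apoTf in WT, Fth1 went from -0.02 to -0.04 and Pcbp2 from -0.04 (-0.57 to 0.50) to -0.12 (-0.66 to 0.42).

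Leaving out single libraries, the log2 Fth1 to Ftl1 ratio ranged from -0.07 to 0.15 (genotypes given PBS), from -0.36 to -0.15 (apoTf in β-thalassemic) and from 0.41 to 0.60 (apoTf in WT). The Pcbp1 to Pcbp2 ratio ranged from -0.76 to 0.00, from -0.03 to 0.13 and from -0.89 to -0.13.

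Counts over all genes depended more on the processing. For the genotypes given PBS, 25 genes passed, against 8 with the filter at 5 FPKM, 40 with quantile normalization, 9 in a fit of only the groups compared and 3 to 90 when a library was left out (90 without replicate 2 of PBS-treated WT, 3 and 4 without replicates 1 and 2, and 9 without replicate 3, of PBS-treated β-thalassemic). For apoTf in β-thalassemic mice, 3 passed, against 7 with no filter, 5 with only the groups compared and 1 to 6 when a library was left out. For apoTf in WT, 0 passed, against 1 with no filter, 446 without replicate 2 of PBS-treated WT and 3 without replicate 3 of apoTf-treated WT. The count was 4 against 7 (without replicate 1 of PBS-treated WT) for the genotypes under apoTf. For the difference between the apoTf effects it was 0 against 1 with no filter and 1 without replicate 2 of PBS-treated β-thalassemic. Over both treatments it was 15, against 29 with no filter, 9 with the filter at 5 FPKM, 27 and 28 with median-ratio scaling and quantile normalization, and 35 without replicate 1 of PBS-treated WT. The causes were not tested.

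The values did not settle whether libraries of the same replicate number belong together. Among 18 pairs of the same number, deviations from the group means correlated at -0.39 to 0.51, 6 of them over 0.1. Other pairs correlated at -0.53 to 0.54. Of 12 libraries, 6 were closest to one of their own number. With the replicate number as a block, 0 members passed in each comparison, and 13 and 1 genes passed for the genotypes given PBS and for apoTf in β-thalassemic mice. For apoTf in WT the Fth1 to Ftl1 ratio was at 0.51 in the block, a value that pairing cannot change. The exact sign-flip p was 0.25, the smallest that 3 pairs allow.

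Ncoa4 was near the filter and was not tested under the filter at 5 FPKM. With 3 pools per group, intervals of the members were 0.44 to 2.5 log2 units wide.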
